A study of Bos taurus with 12 samples.

Results

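The miRNAs of the imprinted DLK1-DIO3 region were followed in small RNA sequencing of blood from 12 Chinese Holstein dairy cows. Members were the rows of the deposited miRNA table whose name, stripped of species, arm and isoform marks, matched one of 53 miRNA names of the region. They came to 52 of the 1981 distinct rows and represented 40 of the 53 names. The study placed 6 cows in a heat resistant and 6 in a heat stressed group (resistant and stressed from here on) by PCA of how far milk yield dropped and of rectal temperature, and the labels name no other treatment, age or sampling time. The fraction of blood that was extracted is not stated. No label says outright that each library is a separate cow, which was assumed, so p-values measure the spread between these libraries.

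The DLK1-DIO3 region carries one of the largest miRNA clusters of placental mammals. Its protein-coding genes, among them DLK1, RTL1 and DIO3, are expressed from the paternal chromosome, while the miRNAs are made from long noncoding transcripts of the maternal chromosome, with MEG3 first in line. Because many of its miRNAs are processed from shared transcripts, they are known as a group that is expressed together, strongly in embryo, placenta, brain and muscle and weakly in adult blood cells. In sheep, the callipyge mutation in this region changes its expression in muscle.

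The names were set against the cattle gene table of RefSeq (assembly ARS-UCD2.0), used for gene order alone. Of the 53 names, 51 matched a gene, and all 51 lay on chromosome 21, in one run from MIR493 to MIR656. They fell into 2 blocks. The upstream block has 8 names (miR-493, miR-665, miR-431, miR-433, miR-127, miR-432, miR-136 and miR-370), of which several are antisense to RTL1. The downstream block has the other 45, from miR-379 to miR-656 (miR-544b and miR-889, the unmatched names, were placed there from the list), and 32 snoRNA genes stand between the blocks. The 13 names with no row (miR-154a, miR-329a, miR-377, miR-409b, miR-411b, miR-496, miR-544a, miR-544b, miR-668, miR-758, miR-889, miR-1193 and miR-3578) were not analysed here. A row named miR-544-5p for goat, without the letter, was not taken by the naming rule. It was detected in 9 libraries, with at most 19 counts. Mature sequences were not used here, so the members are grouped by position and not by seed.

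Totals ran from 3992952 to 9813801 counts per library with each name counted once. The red cell miRNAs miR-451, miR-144 and miR-486 summed to between 20217 and 97827 CPM (counts scaled to library totals adjusted by TMM). These sums do not tell which fraction of blood was extracted. The cluster held a small part of each library, from 0.0477% of counts (95% Wilson interval 0.0462% to 0.0494%) in stressed library 1 to 0.104% (0.102% to 0.106%) in stressed library 3. These intervals cover counting error only. The means were 0.0609 ± 0.0218% in stressed and 0.0624 ± 0.00742% in resistant libraries (SD, n = 6 each). In bulk blood, fewer cells of a type and less RNA per cell cannot be told apart.

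Stressed library 3 stood apart from the other 11 libraries. Its members summed to 1003 CPM. The other stressed libraries lay between 489.9 and 612 CPM, and the resistant libraries between 512 and 737 CPM, so apart from that library the ranges of the groups overlapped in part. Both blocks were at their highest in library 3. It had 433 CPM of the upstream block, against 179 to 301 CPM elsewhere, and 571 CPM of the downstream block, against 307 to 436 CPM elsewhere. The makeup of the cluster moved less, since the upstream block held 43.1% of it in that library and 35.3% to 41.5% in the others.

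**Figure D1:**
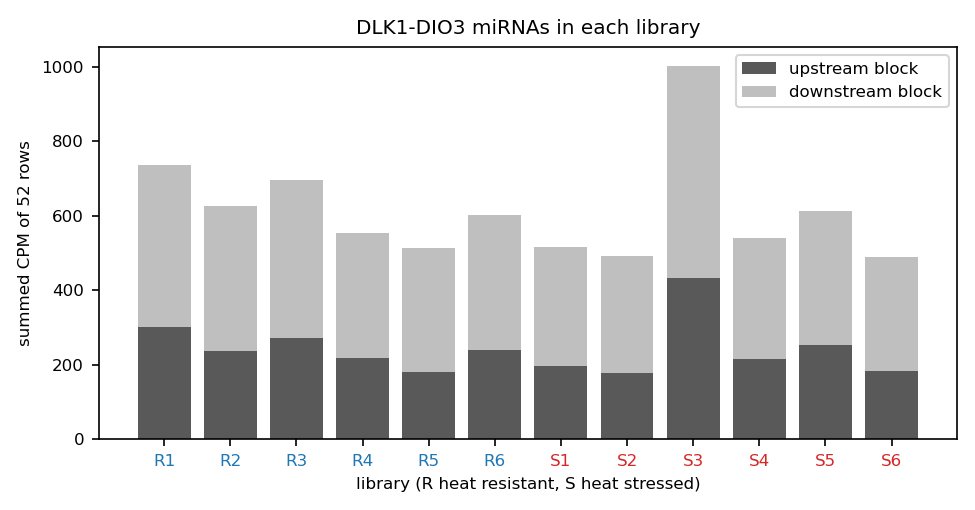
Summed CPM of the 52 DLK1-DIO3 rows (vertical axis) in each library (horizontal axis, R resistant and S stressed), with the upstream block dark and the downstream block light. Library S3 reaches 1003 CPM, and the other 11 libraries lie between 489.9 and 737 CPM.

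A filter on low counts (edgeR, filterByExpr) kept 32 of the 52 rows, 9 upstream and 23 downstream, from 28 precursors. Mean levels of these 32 ran from 1.36 to 143 CPM. miRNAs are read whole, so no scaling by length was applied to these levels. One miRNA made up much of the cluster: miR-127, which in mouse is antisense to Rtl1, held 23.5% of all member counts, and the 12 most abundant rows held 79.6%.

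miR-127 ran from 98.4 to 173 CPM in resistant libraries, with a median of 136 CPM. In stressed libraries it ran from 100.1 to 276 CPM, with a median of 129.8 CPM. The groups overlapped, and the highest value was that of stressed library 3. miR-432, from the same antisense stretch, ran from 20.1 to 37.3 CPM (median 29.5) in resistant and from 15.6 to 46.4 CPM (median 24.8) in stressed libraries. miR-136-3p, its neighbour, ran from 19.4 to 32.4 CPM (median 27.0) and from 19.3 to 39.7 CPM (median 22.3) in the same order. In both, stressed library 3 was highest and the other 5 stressed libraries were below the resistant median. miR-493-5p, at the start of the cluster, ran from 16.9 to 24.0 CPM (median 21.2) in resistant and from 11.4 to 26.2 CPM (median 15.4) in stressed libraries. The rest of the upstream block was low. miR-433, which in mouse has been tied to bone formation through Runx2, averaged 12.3 ± 4.07 CPM in resistant and 9.19 ± 3.74 CPM in stressed libraries (SD, n = 6 each). miR-665, miR-127-5p, miR-493 and miR-370 averaged between 2.64 and 4.52 CPM over all libraries. miR-431-3p, named in muscle stem cell work in mouse, had at most 41 counts, in stressed library 3, and was not tested.

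In the downstream block, whose deletion in mouse impairs the metabolic adaptation of newborns, miR-494 was the most abundant member row. It ran from 46.6 to 65.9 CPM (median 52.6) in resistant and from 40.7 to 68.2 CPM (median 50.8) in stressed libraries. miR-411a ran from 27.4 to 52.1 CPM (median 40.1) and from 32.6 to 68.8 CPM (median 39.2). Both had their highest value in stressed library 3, with wide overlap of the groups. miR-379, the first miRNA of the block, ran from 17.8 to 35.9 CPM (median 28.7) in resistant and from 18.4 to 48.3 CPM (median 24.0) in stressed libraries. miR-380-3p ran from 23.5 to 34.2 CPM (median 31.7) and from 24.7 to 42.7 CPM (median 28.5). miR-369-3p ran from 15.1 to 27.0 CPM (median 20.999) and from 18.4 to 30.7 CPM (median 19.7). For these 3 the groups again overlapped, and a single stressed library held the top.

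miR-382, from the middle of the downstream block, had a different spread. It ran from 34.6 to 54.6 CPM (median 42.8) in resistant and from 21.2 to 57.3 CPM (median 29.1) in stressed libraries. Apart from library 3, no stressed library was above 30.6 CPM, so those 5 lay under all 6 resistant libraries. miR-154c ran from 34.0 to 47.2 CPM (median 35.1) in resistant and from 28.1 to 50.6 CPM (median 30.8) in stressed libraries, where the highest value apart from library 3 was 32.6 CPM. miR-299-3p ran from 11.8 to 20.2 CPM (median 13.8) in resistant and from 7.003 to 16.6 CPM (median 8.89) in stressed libraries, where the highest apart from library 3 was 11.1 CPM. With stressed library 3 set aside, these 3 of the 32 members did not overlap between the groups, against 1.98% of all 756 features tested, or 1.19% that were lower in stressed libraries as these are. With all libraries, 0 of the 32 members and 1.06% of all features did not overlap. Setting aside the library that held the top value favours separation by construction, and the 3 were named after their values were seen.

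**Figure D2:**
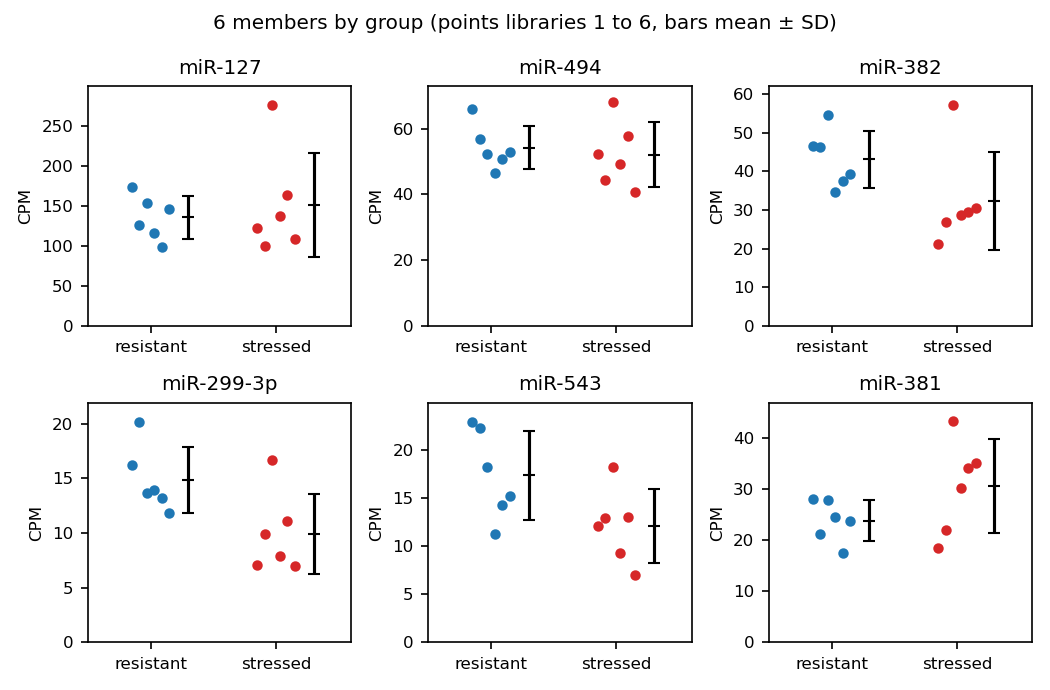
CPM (vertical axes, from 0) of 6 members in resistant (blue) and stressed (red) libraries, one point a library, with the mean and SD beside them in black. Stressed library 3 is the highest red point in each panel, and for miR-382 and miR-299-3p the other 5 red points lie under all blue ones.

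miR-381, whose row name carries a mark for a base change from A to G, showed the opposite order of medians. It ran from 17.4 to 28.0 CPM (median 24.2) in resistant and from 18.5 to 43.4 CPM (median 32.2) in stressed libraries, where libraries 3, 4, 5 and 6 were above every resistant library and libraries 1 and 2 were not. miR-412-5p averaged 6.47 ± 3.14 CPM in stressed and 4.77 ± 1.26 CPM in resistant libraries, and miR-411c-5p 10.1 ± 3.44 and 8.76 ± 2.84 CPM (SD, n = 6 each). miR-543 averaged 12.1 ± 3.83 and 17.3 ± 4.61 CPM, and miR-410, near the end of the cluster, 8.55 ± 1.46 and 10.5 ± 1.14 CPM in the same order (SD, n = 6 each). The other tested downstream rows (miR-495, miR-409a, miR-382-3p, miR-323, miR-485, miR-487b, miR-411a-3p, miR-376c-3p, miR-1185-3p and miR-329b-3p) averaged between 1.36 and 8.32 CPM over the 12 libraries.

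The edgeR quasi-likelihood test called none of the 32 members between stressed and resistant cows at an adjusted p of 0.05, where it called 0% of all 756 features. The smallest adjusted p of a member was 0.189, for miR-299-3p. At an unadjusted p under 0.05 there was 1 member, against 19.3% of all features. DESeq2, which called 7.14% of all features, called 0 members (2 at an unadjusted p under 0.05, against 21.6% of all features), and limma-voom called 0 (2 unadjusted, against 19.7%). Values were higher in stressed cows for 15 members and lower for 17, and 49.7% of all features were higher. The median log2 fold change of the members was -0.01, and that of all features was -0.0019. With DESeq2 size factors 11 members were higher and 21 lower, where 46.8% of all features were higher. In the upstream block 2 rows were higher and 7 lower, with a median of -0.21. In the downstream block 13 were higher and 10 lower, with a median of 0.01.

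Among the members with lower values, log2 fold changes (stressed over resistant, ± SE) were -0.57 ± 0.23 for miR-299-3p, -0.51 ± 0.24 for miR-543, -0.41 ± 0.22 for miR-382, -0.29 ± 0.18 for miR-410 and -0.30 ± 0.20 for miR-493-5p. Their edgeR adjusted p ran from 0.189 to 0.414. Among those with higher values they were 0.36 ± 0.21 for miR-381, 0.44 ± 0.32 for miR-412-5p, 0.22 ± 0.27 for miR-411c-5p, 0.16 ± 0.24 for miR-127 and 0.13 ± 0.22 for miR-411a, with edgeR adjusted p from 0.328 to 0.774. For the abundant miR-494, miR-380-3p and miR-379 they were -0.06 ± 0.15, 0.0017 ± 0.16 and 0.01 ± 0.24. None of these differences passed the test.

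Without stressed library 3 more members had lower values in stressed cows, although edgeR still called no member and 0% of all features. That library was the highest for 24 of the 32 members, so leaving it out lowers stressed values by construction. The members also vary together, so their directions are not separate results. Lower values in stressed cows were then found for 29 of 32 tested members, while 48.3% of all features were higher. The median log2 fold change was -0.27 over the members and -0.03 over all features. At an unadjusted p under 0.05 there were 6 members, all lower, against 19.6% of all features. The smallest adjusted p was 0.0786 (edgeR), shared by miR-382 (-0.65 ± 0.17, log2 fold change ± SE) and miR-299-3p (-0.79 ± 0.20). miR-127 changed sign to -0.10 ± 0.18. The summed level of the cluster was 529.9 ± 50.4 CPM in the other 5 stressed libraries and 622 ± 84.6 CPM in the 6 resistant libraries (SD), against 609 ± 198 CPM with all 6 stressed libraries. Leaving out library 3 of both groups, an alternative added after the data were seen, gave 4 higher and 27 lower members, where 47.1% of all features were higher, and edgeR called 0% of all features.

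**Figure D3:**
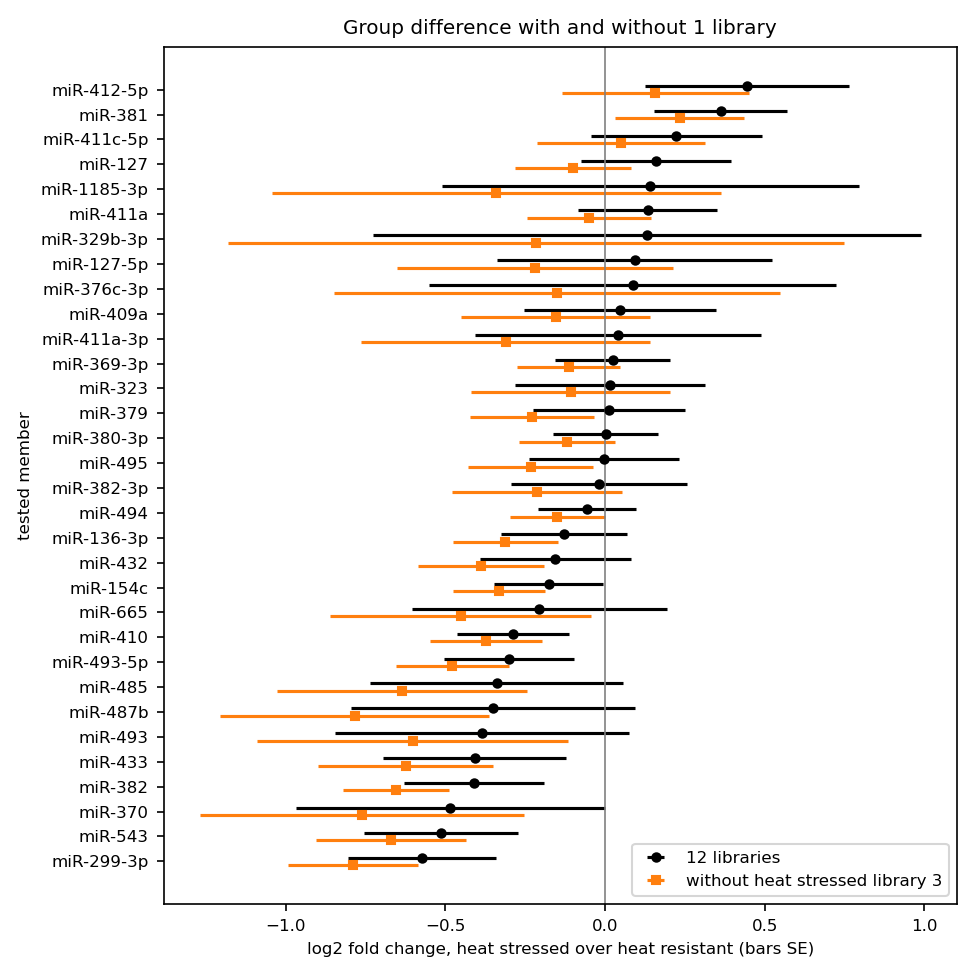
Log2 fold change of stressed over resistant cows (horizontal axis, bars SE) for the 32 tested members (vertical axis), with all 12 libraries in black and without stressed library 3 in orange. The black points lie on both sides of 0, 15 above and 17 below, and leaving out that library shifts the points to the left.

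The members varied together across the libraries. In stressed library 3 all 32 tested members were above the median of the other 11 libraries, by 1.18-fold to 3.23-fold with a median of 1.71-fold, and the same ratio had a median of 1.04 over all features. It was the highest of the 12 libraries for 24 of the 32 members, against 9.26% of all features, and more than 1.5 times the median of the others for 23 members, against 12.4% of all features. Of all 52 rows, 46 had counts in that library, 42 in stressed library 2, 41 in resistant library 4, which had the highest total, and 33 to 40 in the others. The 20 members that failed the filter had at most 41 counts in any library. Stressed library 6 was at the other end, lowest for 8 of the 32 members and above a member's mean in 3. Resistant libraries 1 and 3 were above the mean for 28 and 26 members, and stressed libraries 1, 2 and 4 for 6, 7 and 7.

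**Figure D4:**
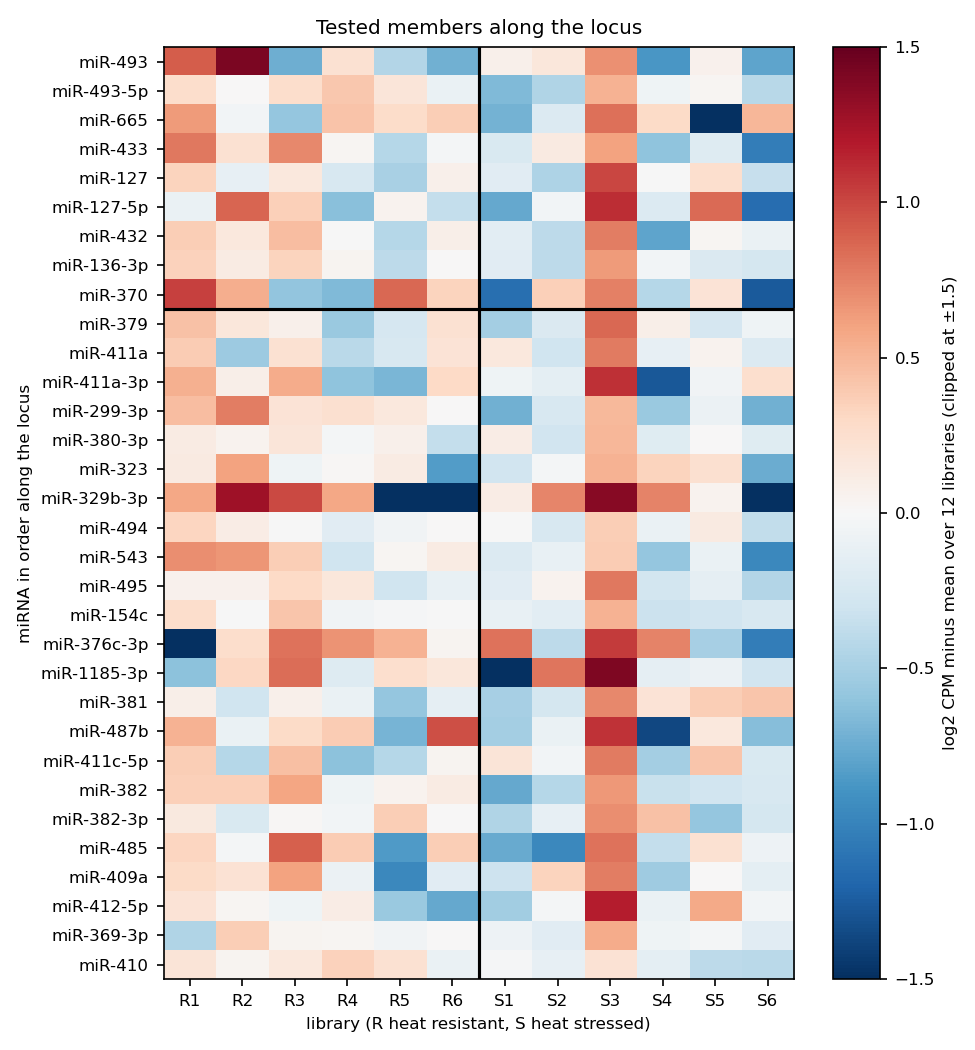
Log2 CPM of the 32 tested members minus their own mean over 12 libraries (colour, clipped at 1.5 either side), with members in order along the locus (rows, the line divides the blocks) and libraries in columns (R resistant, S stressed). Column S3 is red in every row, and S6 is blue in most.

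Over pairs of members from different precursors (492 pairs), Spearman's rho across the 12 libraries had a median of 0.44, with quartiles of 0.26 and 0.59, and 95.3% of the pairs were above 0. Over pairs of the 423 tested cattle-named miRNAs outside the cluster the median was 0.01, with 50.4% above 0. These are descriptions of the same 12 libraries and carry no p. Within groups, on deviations from each group's mean, the median over members was 0.41. Without stressed library 3 it fell to 0.30, with 80.3% of the pairs above 0, and without library 3 of both groups to 0.24. Over the cattle-named miRNAs outside the cluster it was 0.01 in both. By abundance, among the 13 members with a mean of 100 counts or more the median rho was 0.57 (0.44 without stressed library 3), and among the other 19 it was 0.38. Outside the cluster, miRNAs in the count range of those 13 had a median of 0.00.

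By position, the median rho was 0.47 over upstream pairs, 0.41 over downstream pairs and 0.48 over pairs with one member in each block. Set against the mean profile of the members from other precursors, the closest were miR-495 (rho 0.92, and 0.89 without stressed library 3), miR-433 (0.88 in both), miR-299-3p (0.85 and 0.84) and miR-432 (0.85 and 0.81). miR-127 had 0.67 and 0.57, and miR-494 0.70 and 0.61. Several members followed the others only loosely. miR-381 had a rho of 0.21, which was -0.03 without stressed library 3, and miR-411a had 0.33 and 0.13. The rare miR-376c-3p and miR-665 had 0.13 and 0.12, at means of 17.6 and 34.1 counts.

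**Figure D5:**
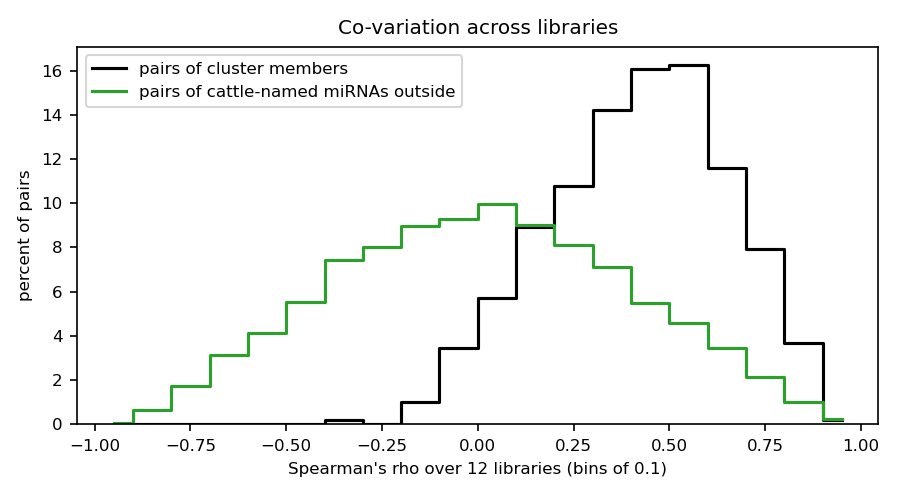
Percent of pairs (vertical axis) by Spearman's rho over 12 libraries (horizontal axis, bins of 0.1), for 492 pairs of cluster members (black) and for pairs of 423 cattle-named miRNAs outside the cluster (green). The member pairs centre on 0.44, the other pairs on 0.01.

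Of the 724 tested features outside the member list, the one most like the mean profile of the cluster over the 12 libraries was miR-409-3p, named for goat, with a rho of 0.90 (0.91 without stressed library 3). The member names list miR-409a and miR-409b, so the naming rule did not take this row, while the RefSeq table gives miR-409 as an older name of the miR-409a gene inside the cluster. At a mean of 83.7 CPM it was more abundant than all members but miR-127. The sums, shares and block levels given here for the cluster leave it out. It ran from 70.6 to 114 CPM in resistant and from 58.7 to 104 CPM in stressed libraries, with the highest value in resistant library 1 and a log2 fold change of -0.30 ± 0.18 (SE; edgeR adjusted p = 0.359). The next 4 by the same measure were miR-99b-3p (0.85), the 3' product of miR-2904-2 (0.85), miR-139-3p (0.77) and miR-2478 (0.76), which are not among the locus names. Without stressed library 3 they had 0.81, 0.90, 0.72 and 0.90 in the same order. A rho of this size was thus not particular to the locus.

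Of 6 other miRNAs of the locus in a list beside the members (miR-134, miR-300, miR-337, miR-453, miR-539 and miR-770), only miR-300 had a tested row, named for mouse, and 0 of 1 passed. Its log2 fold change was 0.35 ± 0.28 (SE; edgeR adjusted p = 0.502), and its highest value, 22.8 CPM, was in stressed library 3. Like miR-381, it was higher in stressed libraries 3, 4, 5 and 6, with at least 16.9 CPM in each, than in any resistant library, where it reached 16.0 CPM. As sequences were not used, whether this row and the variant row of miR-381 hold separate products cannot be told.

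For 12 precursors the table held 2 rows, and for 4 of them both were tested. The 2 rows were taken as the 2 arms, although many names give no arm and sequences were not used. For miR-299 this is in doubt, since both of its rows hold a value that is not whole in stressed library 5. The minor arm held 2.64% of the summed counts for miR-127, 5.88% for miR-411a, 12.8% for miR-382 and 15.6% for miR-493. As a share of both arms per library, miR-382-3p averaged 14.3 ± 3.34% in stressed and 11.4 ± 2.53% in resistant libraries, and miR-127-5p 2.48 ± 0.985% and 2.82 ± 1.28% (SD, n = 6 each). Stressed library 3, with 13.1% and 2.76%, lay inside the range of the others.

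Reads that fit more than 1 member were split by the authors, and 9 of the 52 rows hold values that are not whole. miR-379-3p and miR-411a-3p had such values in the same 3 libraries, and miR-376e with miR-376c-3p, and miR-376d with miR-376a, in 1 each. Counts of these near-identical products cannot be attributed to 1 of them. The miR-376 family, known in human and mouse for RNA editing within the seed, was barely detected here: apart from miR-376c-3p, its rows (miR-376a to miR-376e) had between 2.5 and 75.5 counts over all 12 libraries.

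Marker miRNAs of other cell types are given beside stressed library 3. The muscle list (miR-1, the miR-133 family, miR-206, miR-208 and miR-499; 6 of 8 names present) summed to 1042 CPM in that library and 1055 CPM in resistant library 3, and to between 269.9 and 741 CPM in the other 10. Of its 9 rows, 2 were highest in stressed library 3. miR-133c and miR-208a had no row. The mesenchyme list (miR-199, miR-214, miR-143, miR-145, miR-10b, miR-100 and miR-152; 8 of 8 names) summed to 14620 to 18808 CPM in stressed and 14836 to 20081 CPM in resistant libraries, with 2 of 17 rows highest in stressed library 3. Stressed library 3 ranked 4 of 12 on that list. Liver (miR-122 and miR-885) summed to 9363 to 45597 CPM in stressed and 18061 to 158557 CPM in resistant libraries. Resistant libraries 1 and 2, with 147959 and 158557 CPM, each held the top value of 3 members, and no other resistant library passed 24193 CPM. The list labelled platelets with endothelium (miR-126, miR-223 and miR-151) summed to 20521 to 28238 CPM in stressed and 20272 to 25905 CPM in resistant libraries. Lymphocytes (miR-150, miR-342, miR-155 and miR-29a) summed to 21237 to 42787 and 16970 to 23550.3 CPM, and nerve cells (6 of 7 names, miR-124a having no row) to 1909 to 2848 and 2101 to 2671 CPM. Red cells summed to 26245 to 82286 and 20217 to 97827 CPM. On these lists stressed library 3 ranked between 4 and 6 of 12. Across the 12 libraries, which share their normalization, Spearman's rho between a list's summed CPM and the mean profile of the tested members was 0.66 for mesenchyme and -0.55 for lymphocytes. It was 0.36 for liver, 0.00 for muscle, -0.10 for platelets with endothelium, -0.20 for nerve cells and -0.31 for red cells. Of the 12 tested mesenchyme rows, only miR-152 (rho 0.72) was among the 12 outside features closest to that profile. It is a single row and does not stand for the list. By these values the mesenchyme sum tended to be higher, and the lymphocyte sum lower, in libraries with more of the cluster. Stressed library 3, the highest in the cluster, went against this for lymphocytes, with 25896 CPM against a median of 21237 CPM in the others. The lymphocyte sum also differed in range between the groups, so its rho cannot be told apart from group. The part of these lists and of depth in the level of the cluster was not tested. Stressed library 3 had the second highest total, 9728457 counts, and resistant library 3, with the second highest share of cluster counts (0.0729%, interval 0.0703% to 0.0756%), had the fewest, 3992952.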

How the data were processed

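Small RNA of blood was sequenced in 12 libraries. Per the labels' protocols, Trizol RNA went into TruSeq small RNA libraries, and the ACGT101-miR program filtered out dimers of the adapter, junk, reads of low complexity, other RNA families and repeats. No aligner, miRBase release or genome build is stated. The raw columns deposited by the authors hold expected counts per miRNA row, which need not be whole. The deposited normalized columns (a signal) are each library's raw values times 1 constant and entered no test. Of 2183 rows, 202 repeat a name with its values and were counted once. The protocol speaks of fewer libraries than the table holds, and all were used.

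Counts were rounded and fitted over all features in R 4.3.3 with edgeR 4.0.16 (filterByExpr, minimum count 10, TMM, robust quasi-likelihood F test, 2-sided, Benjamini-Hochberg at 0.05). SE is the size of the log2 fold change over the root of F. CPM use TMM-adjusted totals, and correlations use log2 CPM with a prior count of 2. DESeq2 1.42.0, limma 3.58.1 (voom), other filters and scalings, a replicate block and leaving out libraries were alternatives. The test was also run on simulated data with planted changes larger than that of any tested member in the main fit. That run says nothing of its power at the sizes seen here.

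The members, lists and rules were chosen with earlier results of these data known. Named miRNAs are the 12 most abundant tested members, the 5 with the smallest p in each direction, any whose groups do not overlap, and the 5 outside features most like the cluster. Others are named by block or after their values were seen.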

Additional observations from a re-analysis of the deposited data

Results flagged for a closer look

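Among 36 values by group that were screened for a single library far from the other 5, 8 stood out, and all 8 were heat stressed, with library 3 the highest. Chance alone gives about 1 in 20. The gap to the next library, as a part of the group's range, was 0.746 for the cluster's share of counts, 0.637 for miR-127, 0.737 for miR-136-3p, 0.800 for miR-154c, 0.850 for miR-369-3p, 0.676 for miR-379, 0.741 for miR-382 and 0.662 for miR-411a, each past Dixon's 95% critical value for 6 libraries. These miRNAs vary together, so the 8 are not separate events.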

How the results depend on the processing

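No member was called under any of the alternatives run. The count of members with higher values in heat stressed cows, 15 of 32, was 33 of 52 without the filter, 4 of 22 with cattle names only (9 of the same 22 without that restriction, with the median of all features at -0.072 under it), 4 of 31 without library 3 of both groups and 3 of 32 without heat stressed library 3 under DESeq2 size factors. Leaving out 1 library gave 3 (heat stressed library 3) to 19, with 7 without heat resistant library 6. The median log2 fold change ran from -0.29 to 0.05. The median rho between members was 0.30 without the filter, 0.50 with cattle names only, 0.25 without library 3 of both groups and 0.33 without heat stressed library 3 under DESeq2 size factors, each rescaled after the omission, and 0.30 to 0.48 with 1 library left out. The difference in share of counts, -0.0015 percentage points, ran from -0.0102 to 0.00108 with 1 library left out. Small differences changed sign. miR-127 was at -0.066 without library 3 of both groups, -0.12 without heat stressed library 3 under DESeq2 size factors, and -0.10 to 0.28 with 1 library left out, and miR-411a at -0.061 and -0.049 to 0.23 in the latter cases. miR-369-3p was at -0.0093 with DESeq2 size factors, -0.0060 with DESeq2, -0.0028 with repeat rows summed, -0.064 with cattle names, -0.11 without library 3 of both groups, -0.14 without heat stressed library 3 under DESeq2 size factors, and -0.11 to 0.10. In the same order miR-379 was at -0.014, -0.014, -0.012, -0.077, -0.23, -0.25 and -0.23 to 0.14, with -0.0091 by limma-voom. miR-380-3p was at -0.026, -0.022, -0.028, -0.086, -0.088, -0.14 and -0.12 to 0.078, with -0.0055 by limma-voom. miR-494 ran from -0.15 to 0.0079 with 1 library left out. The cause was not tested, except that leaving out heat stressed library 3 removes its own high values.

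With the library number as a replicate block, 0 members were called, 10 were higher, the median log2 fold change was -0.080, and miR-379 and miR-380-3p changed sign to -0.029 and -0.015. Over all features the block called 8 and the fit without it 0. Same-numbered libraries had correlations of their deviations from -0.053 to 0.28, 2 of 6 correlated best with their own number, and the numbers were not taken to pair cows. Over all features, calls ran from 0 to 97, the latter without heat resistant library 4. Of the 32 tested members, 19 had a mean under 100 counts, with an SE of the log2 fold change from 0.18 to 0.86, against 0.15 to 0.24 for the other 13.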
